A study of Mus musculus with 6 samples.

Results

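The Klr genes encode killer cell lectin-like receptors, most of them in the natural killer (NK) gene complex of chromosome 6. The family is best known from NK cells and T cells, where its members read MHC class I molecules and related ligands and either inhibit or activate the cell. Inhibitory members carry a tyrosine motif that recruits the phosphatase Ptpn6 (SHP-1), whereas activating members signal through partner proteins such as Tyrobp (DAP12), Hcst (DAP10) and Fcer1g. Some members are also known from myeloid cells and dendritic cells (DC). The 9 genes described here are the Ly49 receptors Klra2, Klra5 and Klra17, the CD94 and NKG2 receptors Klrd1, Klrk1 and Klrc1, the NKR-P1 receptors Klrb1b and Klrb1c, and Klrg1. They were taken as the probe sets of the deposited value table annotated with 1 of these symbols alone. Each gene had 1 such probe set, so 9 of 35399 probe sets are described.

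RNA came from CD4+ DC of the spleen of male mice aged 6 weeks, labelled Runx3 +/+ (WT) or Runx3 -/-, with 3 mice of each genotype in 3 litters that each gave a WT and a Runx3-/- animal. Runx3 is a RUNX transcription factor, and the labels name no Cre driver that would limit its loss to DC. The labels describe cells sorted as CD11c+ and MHCII+ by CD4 and CD8 and name an Esam population without giving its gate. The strain is not stated in the labels, and inbred mouse strains are known to differ in which Ly49 genes they carry. Values are log2 intensities after robust multichip average (RMA) processing, and 6.5 is the background level of the study's methods.

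The arrays were alike in level, with medians of 6.57 to 6.65 and 50.7% to 51.3% of probe sets at or above background. The mean of Runx3 itself was 11.19 ± 0.07 for WT and 9.21 ± 0.08 for Runx3-/- arrays (SD, n = 3 each, limma, adjusted p = 0.00270, or 0.0609 with litter as a block), the lower in the arrays labelled Runx3-/-. All 11 measured markers of CD4+ DC were above background, among them Itgax (CD11c), the MHC class II gene H2-Aa, Flt3 and Cd4, and the mean of this list was 11.78 to 11.86 in WT and 11.70 to 11.79 in Runx3-/- arrays. Irf4, a transcription factor needed for these cells, fell by 0.62 on the log2 scale (limma, adjusted p = 0.0434, or 0.102 with litter as a block). It was the 1 gene of the list that was called, as against 1.56% of all tested probe sets. In 7 of the 11 the genotypes did not overlap, as against 22.4% of all tested probe sets. Among them were Itgax with a difference of only -0.11, Zbtb46 with -0.35 (adjusted p = 0.131) and Itgam (CD11b) with 0.47 (adjusted p = 0.172).

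Among the Klr receptors, Klra5 fell below background in Runx3-/- DC, while Klra17, Klra2, Klrk1 and Klrb1b had higher mean values without passing the adjusted threshold. Klrd1 was high in both genotypes, and Klrb1c, Klrc1 and Klrg1 were below background in all 6 arrays. Of the 9 genes, 6 reached 6.5 in at least 1 array and were tested. Of these, 1 passed an adjusted p of 0.05 (limma, Benjamini-Hochberg over 19149 probe sets), as against 1.56% of all tested probe sets (0.856% higher and 0.7% lower). The study itself used looser thresholds, namely p up to 0.05 before adjustment plus a 1.5-fold change. These were passed by 5 of the 6, 4 higher and 1 lower, as against 3.95% of all tested probe sets (2.01% higher and 1.94% lower). The values of the genotypes did not overlap for 4 of the 6, 3 higher and 1 lower, as against 22.4% of all (7.48% higher and 14.9% lower). Klra2 and Klrk1 reached background only in Runx3-/- arrays and Klra5 only in WT arrays. These 3 could thus enter the test only through the group in which they were high. The receptors were also chosen with earlier results of these data known, so the counts say nothing about the family as a whole. In RNA of sorted populations, fewer cells that carry a transcript and less of it per cell cannot be told apart.

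**Figure D1:**
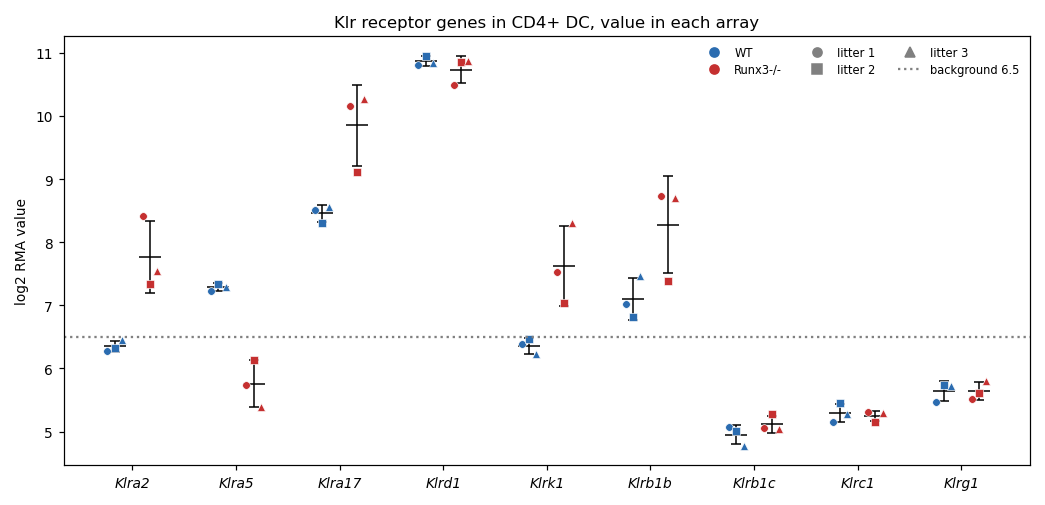
Log2 RMA value (vertical axis) of the 9 Klr genes by array (blue, WT, and red, Runx3-/-), with symbols for the 3 litters and bars for mean and SD by genotype (n = 3). The dotted line marks 6.5. Klra5 crosses the background downwards in Runx3-/- arrays (means 7.29 and 5.76), Klra2 and Klrk1 cross it upwards (6.35 to 7.76 and 6.36 to 7.62), and Klrd1 stays near 10.8.

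Ly49 genes arose by duplication, and the sequences just upstream of the 3 members are shown because Klra5 fell while Klra17 and Klra2 had higher values. They are the 250 bases before the annotated start from RefSeq (GRCm38.p6), all on the minus strand, at chr6:129913225-129913474 for Klra5, chr6:129876673-129876922 for Klra17 and chr6:131247363-131247612 for Klra2. Capitals mark runs of at least 10 bases that all 3 windows share.
Klra5: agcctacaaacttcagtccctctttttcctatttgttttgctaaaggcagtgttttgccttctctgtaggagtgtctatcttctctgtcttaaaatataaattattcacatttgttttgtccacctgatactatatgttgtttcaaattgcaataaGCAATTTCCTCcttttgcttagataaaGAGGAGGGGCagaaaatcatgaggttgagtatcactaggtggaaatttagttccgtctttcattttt
Klra17: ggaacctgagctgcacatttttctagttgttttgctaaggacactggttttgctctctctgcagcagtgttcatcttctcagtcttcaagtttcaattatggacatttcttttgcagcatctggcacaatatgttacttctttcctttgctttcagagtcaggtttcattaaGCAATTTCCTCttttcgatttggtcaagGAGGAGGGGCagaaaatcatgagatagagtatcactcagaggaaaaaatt
Klra2: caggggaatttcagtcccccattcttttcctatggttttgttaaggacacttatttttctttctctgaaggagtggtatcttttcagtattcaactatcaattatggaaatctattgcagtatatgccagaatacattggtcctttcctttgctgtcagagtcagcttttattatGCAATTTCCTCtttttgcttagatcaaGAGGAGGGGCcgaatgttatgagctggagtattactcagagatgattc
The shared runs were GCAATTTCCTC and GAGGAGGGGC. On either strand they were found in 0.0548% and 0.758% of 32851 windows of the same length. Both together were found in the windows of 6 genes, all of them among the 11 Klra genes with a window. The 6 include the 3 members that the runs were taken from, and also Klra6 and Klra8, which were below background here. In global alignments the 3 windows were 63.8% to 75.2% identical to each other, whereas the 18 other pairs of member windows were 44.3% to 51.6% identical. The letters TGTGGT, the core of the RUNX motif, were searched on both strands of the 8 windows for 7 of the 9 genes, all but Klrd1 and Klrg1. They were found in 3 of the 8 windows, as against 14% of all windows. None of the Ly49 windows held them, which says only that these letters are not in these 250 bases. The windows with a match were those of Klrb1c and Klrc1, below background here, and of Klrk1. The motif TGACGT, a site of the DC factor zDC (Zbtb46), and GAGGAAGT, a PU.1-type sequence, were found in 0 of the 8 windows, as against 6.47% and 2.44% of all windows.

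Klra5 (probe set 10548450, Entrez gene 16636) encodes Ly49E, an inhibitory receptor known from fetal NK cells. It read 7.22, 7.34 and 7.29 in WT 1, 2 and 3 and 5.74, 6.13 and 5.39 in Runx3-/- 1, 2 and 3. All WT arrays lay above background and all Runx3-/- arrays below it, and the groups did not overlap. The group means were 7.29 ± 0.06 and 5.76 ± 0.37 (SD, n = 3 each), with a log2 difference of -1.53 (SE 0.18, limma, adjusted p = 0.0242). With Runx3-/- values set to the background, the point estimate was 1.72-fold lower. Within litters the difference was -1.48, -1.21 and -1.90. Fitting litter as a replicate block raised the adjusted p to 0.0812, which over all 14 alternatives ranged from 0.0192 to 0.132. Leaving out Runx3-/- 2 kept the call (adjusted p = 0.0237), whereas the adjusted p was 0.123 without WT 1, 0.0709 without WT 2, 0.0899 without WT 3, 0.106 without Runx3-/- 1 and 0.0562 without Runx3-/- 3.

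Klra17 (probe set 10548437, Entrez gene 170733) encodes Ly49Q, an inhibitory receptor for MHC class I that is known from plasmacytoid DC and other myeloid cells. Its values were 8.50, 8.31 and 8.55 in the WT arrays and 10.16, 9.11 and 10.27 in the Runx3-/- arrays. Every Runx3-/- value lay above every WT value, with Runx3-/- 2 the nearest to WT. Means of 8.45 ± 0.13 and 9.85 ± 0.64 (SD, n = 3 each) gave a log2 difference of 1.40 (SE 0.31, 95% interval 0.65 to 2.14), or 2.63-fold. The difference did not pass the adjusted threshold (limma, adjusted p = 0.100, unadjusted p = 0.00354). It did so without Runx3-/- 2, the array nearest to WT, where it was 1.77 (adjusted p = 0.0142). Leaving out any other array gave an adjusted p of 0.203 to 0.288. Over 14 alternatives the adjusted p ranged from 0.0142 to 0.288.

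Klra2 (probe set 10548552, Entrez gene 16633) encodes Ly49B, an inhibitory receptor of myeloid cells. The WT arrays read 6.28, 6.33 and 6.45, all under background, and the Runx3-/- arrays 8.41, 7.33 and 7.54, all above it. The log2 difference was 1.41 (SE 0.27, 95% interval 0.75 to 2.07, limma, adjusted p = 0.0751, unadjusted p = 0.00186). With WT values set to the background, the point estimate was 2.39-fold. The difference was not past the adjusted threshold in any of 14 alternatives, in which the adjusted p ranged from 0.0537 to 0.260. Its litter differences were 2.13, 1.00 and 1.09.

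Other Ly49 genes gave no signal above background. Klra3, Klra6 and Klra8 had probe sets of their own, and another 4 probe sets were annotated with several Ly49 symbols and read 4.77 to 5.31 in all arrays. Of these 4, 2 list Klra5 among their symbols. Ly49 genes are near copies of each other, and which transcripts each probe set detects was not examined.

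The CD94 and NKG2 receptors were unlike one another. Klrd1 (probe set 10542214, Entrez gene 16643) encodes CD94, which pairs with NKG2 chains such as NKG2A. It read 10.81, 10.95 and 10.83 in WT and 10.48, 10.85 and 10.87 in Runx3-/- arrays, and the groups overlapped. The log2 difference of -0.13 had a 95% interval of -0.43 to 0.17 (limma, adjusted p = 0.666). Klrc1, which encodes NKG2A, lay between 5.15 and 5.45 in all 6 arrays, under background, and the related Klrc2, Klrc3 and Klre1 did not reach it either.

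Klrk1 (probe set 10548345, Entrez gene 27007) encodes NKG2D, an activating receptor for stress-induced ligands. Its values were 6.39, 6.47 and 6.22 in the WT arrays and 7.53, 7.03 and 8.30 in the Runx3-/- arrays. The WT values were all under background and the Runx3-/- values all above it, with Runx3-/- 2 the lowest. The log2 difference was 1.26 (SE 0.31, 95% interval 0.52 to 2.00). It did not pass the adjusted threshold (limma, adjusted p = 0.122, unadjusted p = 0.00568, range of the adjusted p 0.0626 to 0.331 over 14 alternatives). With WT values set to the background, the point estimate was 2.17-fold. Within litters the log2 difference was 1.14, 0.57 and 2.07. Its upstream window (RefSeq, GRCm38.p6, chr6:129623865-129624114, minus strand) held TGTGGT, in capitals, 129 to 124 bases before the start, and those of the tested Klra2, Klra5, Klra17 and Klrb1b did not.
Klrk1: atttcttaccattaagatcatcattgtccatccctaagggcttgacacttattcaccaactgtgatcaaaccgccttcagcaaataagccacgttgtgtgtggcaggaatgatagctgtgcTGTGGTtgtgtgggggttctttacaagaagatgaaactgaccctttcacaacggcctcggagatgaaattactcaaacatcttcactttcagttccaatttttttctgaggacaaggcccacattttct

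Klrb1b (probe set 10548314, Entrez gene 80782) encodes the inhibitory NKR-P1B, a receptor for the lectin Clec2d (Clr-b). It read 7.01, 6.81 and 7.47 in WT and 8.74, 7.38 and 8.70 in Runx3-/- arrays. The groups overlapped, since Runx3-/- 2 lay under WT 3, but in each litter the Runx3-/- value was the higher, by 1.72, 0.57 and 1.23. The log2 difference was 1.17 (SE 0.39, 95% interval 0.22 to 2.13, adjusted p = 0.228, unadjusted p = 0.0231). Without Runx3-/- 2 it was 1.62 and passed (adjusted p = 0.0464), whereas leaving out any other array gave an adjusted p of 0.271 to 0.512. Over 14 alternatives the adjusted p ranged from 0.0464 to 0.512. Klrb1c, which encodes the NK1.1 antigen of NK cells, lay between 4.78 and 5.27 in all arrays. Klrg1, an inhibitory receptor for cadherins on differentiated NK and T cells, lay between 5.47 and 5.79. Neither reached background, and no fold is given for them or for Klrc1.

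**Figure D2:**
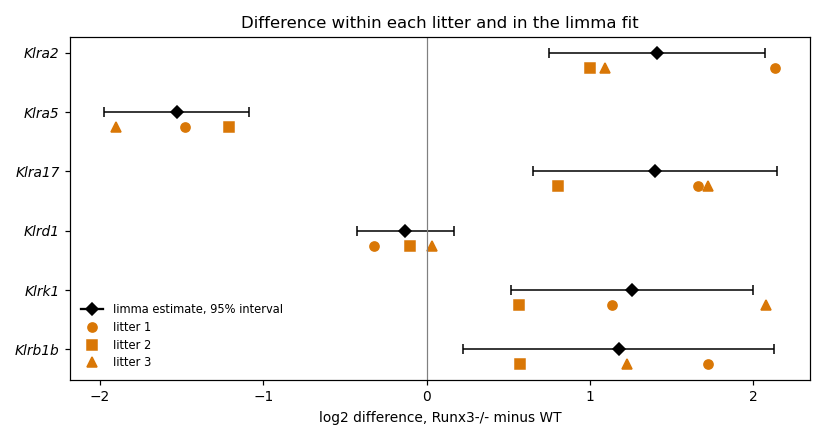
Log2 difference of Runx3-/- minus WT (horizontal axis) for the 6 Klr genes that were tested, as the limma estimate with its 95% interval (black, 3 against 3 arrays) and as the difference within each litter (orange symbols). All 3 litter differences of Klra5 are negative, those of Klra2, Klra17, Klrk1 and Klrb1b are positive, and those of Klrd1 lie on both sides of 0.

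Klra17 and Klrb1b, above background in every array, had SDs of 0.13 and 0.34 in WT and of 0.64 and 0.77 in Runx3-/- arrays. In Klra17, Klrb1b, Klra2 and Klrk1, whose Runx3-/- values were all above background, Runx3-/- 2 was the lowest Runx3-/- array and thus the nearest to WT. The same array was the nearest to the WT mean, background disregarded, for 56.3% of all 757 probe sets past those thresholds, with 25.9% for Runx3-/- 3 and 17.8% for Runx3-/- 1. Runx3 itself read 9.16, 9.30 and 9.16 in Runx3-/- 1, 2 and 3. An exact two-sided permutation test over the arrays gave p = 0.1 for Klra2, Klra5, Klra17 and Klrk1, the smallest that 3 against 3 arrays allow. Groups that do not overlap always give this value, so the test adds nothing to the overlap given above, and it does not use the litters.

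Along the complex, the sign and size of the differences varied between neighbouring genes. From Klrb1a to Klra2 the RefSeq table lists 39 genes with a probe set of their own, 8 of them among the receptors described here. Of the 31 others, 12 were tested, and 2 rose past the adjusted threshold, the activation antigen Cd69 with a log2 difference of 1.30 (adjusted p = 0.0418, or 0.0648 with the replicate block) and the lectin receptor Clec12a with 1.43 (adjusted p = 0.0111, or 0.0688 with the replicate block). The median difference of the 12 was 0.11. Klra17 and Klra5, neighbours in this order, had differences of opposite sign. Klri1 and Klri2, the tested genes next to Klra17 on its other side, had differences of -0.22 (adjusted p = 0.438) and -0.05 (adjusted p = 0.917), and beyond Klra2 the DNA-binding protein gene Ybx3 had 0.37 (adjusted p = 0.322). Gabarapl1, the nearest tested gene before Klrd1, had 0.07 (adjusted p = 0.737), and Clec2i, after Klrb1b, had -0.06 (adjusted p = 0.863). Before Klrb1b the nearest tested genes were Fkbp4 with -0.42 (adjusted p = 0.135) and Itfg2 with -0.18 (adjusted p = 0.260). Both were lower in Runx3-/- arrays without overlap, as against 14.9% of all tested probe sets. The nearest tested genes on either side of Klrg1, which lies apart from the complex on the same chromosome, were Slc6a12 with -0.96 (adjusted p = 0.186) and Phc1 with -0.21 (adjusted p = 0.693).

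**Figure D3:**
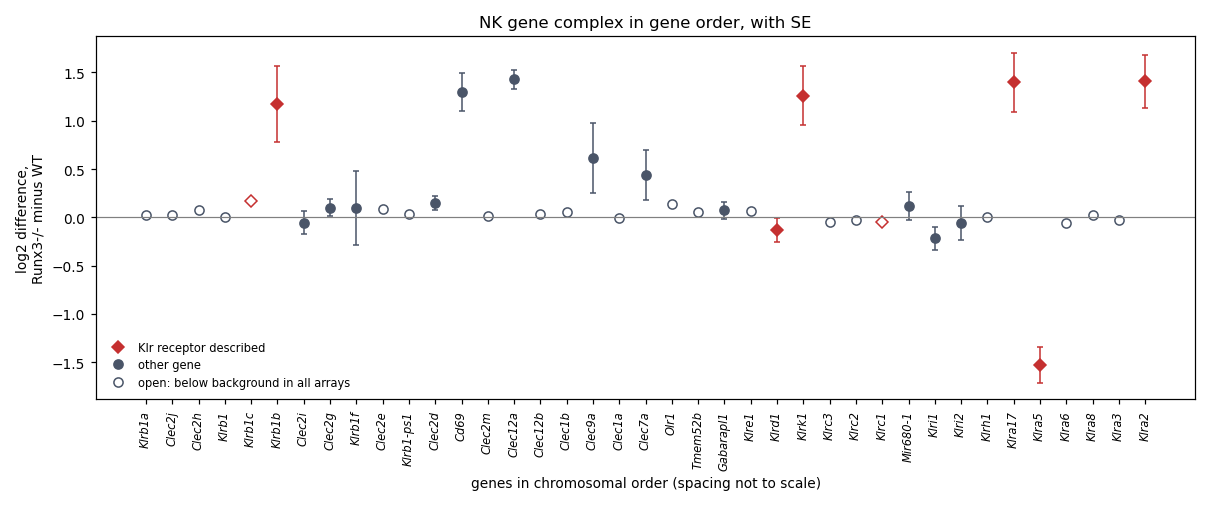
Log2 difference of Runx3-/- minus WT (vertical axis, with SE from limma where tested) for 39 genes of the NK gene complex in chromosomal order (horizontal axis, spacing not to scale). The receptors described are red diamonds, other genes grey circles, and open symbols were below background in all arrays. Differences beyond 1 are scattered between genes near 0, and Klra5 (-1.53) stands beside Klra17 (1.40).

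Of the other Klr genes, 13 of 31 listed had a probe set of their own, 3 were tested and 0 passed the limma test or the looser thresholds. These 3 were Klri1, Klri2 and Klrb1f, each well above background in both genotypes. Klri1 and Klri2 encode receptors that pair with Klre1, which was below background, and averaged 13.18 ± 0.14 and 9.84 ± 0.15 for WT, against 12.96 ± 0.18 and 9.78 ± 0.33 for Runx3-/- (SD, n = 3 each). Klrb1f, an NKR-P1 receptor, read 10.36, 10.57 and 9.49 in WT and 10.73, 10.40 and 9.59 in Runx3-/- arrays, so that both arrays of litter 3 were the lowest of their genotype. Its difference of 0.10 had a 95% interval of -0.83 to 1.02, which leaves room for a change of either sign.

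Among the ligands and signalling partners of the family that could be read, no gene passed the adjusted threshold. In the ligand list 12 of 23 genes had a probe set of their own, 5 were tested and 0 passed the limma test, nor did any pass the looser thresholds of the study. The listed MHC class I genes H2-K1, H2-D1 and H2-T23 were not among the 12, so these ligands were not read. Of the listed NKG2D ligands only H60b and Raet1d were, and Raet1d was below background in all arrays. The median log2 difference of the tested ligands was 0.04 as against -0.04 over all tested probe sets. Clec2d, the ligand of Klrb1b, averaged 11.96 ± 0.05 for WT against 12.11 ± 0.06 for Runx3-/- (SD, n = 3 each), a difference of 0.15 with a 95% interval of -0.02 to 0.32. The related lectins Clec2g and Clec2i had differences of 0.10 and -0.06. H60b, a ligand of NKG2D, was at 0.04, and B2m, the light chain of MHC class I, at 0.01. The cadherins Cdh1, Cdh2 and Cdh4, ligands of Klrg1 or their relatives, were below background.

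In the list of adaptors and signalling proteins 19 of 21 genes had a probe set of their own and 16 were tested, with a median of 0.02. Again 0 passed the limma test, and 1 passed the looser thresholds of the study. Tyrobp and Fcer1g read 12.81 and 13.09 in WT and 12.82 and 13.14 in Runx3-/- DC, with 95% intervals of the difference of -0.17 to 0.19 and -0.14 to 0.23. Hcst, the partner of NKG2D in T cells, was below background in every array, between 5.93 and 6.28, as were Cd247 and Zap70. Fyn, a kinase of the Src family, was the gene past the study's thresholds, with a difference of 0.59 (SE 0.13, adjusted p = 0.0984). Src had 0.35 (adjusted p = 0.222), reaching background in 1 array only, and Pik3cd, a lipid kinase subunit, -0.26 (adjusted p = 0.209). Ptpn6, the phosphatase that inhibitory receptors recruit, had -0.10 (adjusted p = 0.517).

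**Figure D4:**
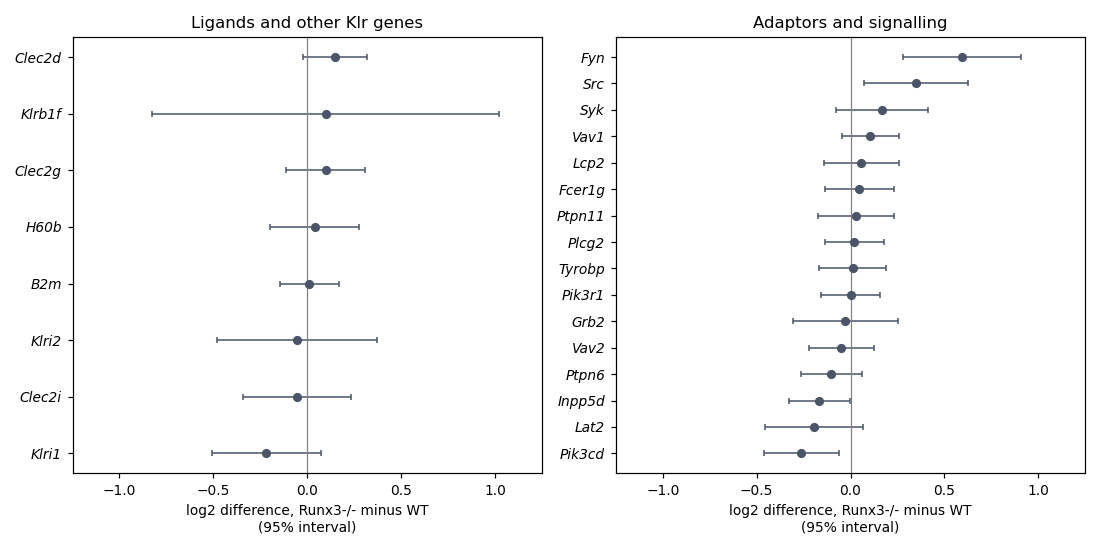
Log2 difference of Runx3-/- minus WT with 95% interval (horizontal axis, limma, 3 against 3 arrays) for the tested ligands and other Klr genes (left) and the tested adaptors and signalling genes (right). None passed the adjusted threshold, and Fyn (0.59) lies farthest from 0.

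Since Klr receptors are also carried by cells that a DC sort could include, marker lists of those cells were read beside them. Of 14 NK cell markers, 11 were below background in all arrays, including Ncr1, Eomes, Gzma, Prf1, Gzmb, Il2rb and Nkg7. The mean over the list was 6.35 to 6.37 in WT and 6.30 to 6.35 in Runx3-/- arrays, and its summed linear level, set by the 3 genes above background, 6137 to 6832 and 4465 to 5693. Those 3 were Ccl5 and Sh2d1b1, which did not pass, and Tbx21, which encodes T-bet and fell by 0.65 on the log2 scale (adjusted p = 0.0434, or 0.108 with the replicate block). Of 10 T cell markers, 9 were below background, among them Cd3d, Cd3e and Cd3g, with Cd5 the exception. The summed level, set largely by Cd5, was 980 to 1160 in WT and 972 to 1082 in Runx3-/- arrays. The list mean was 5.76 to 5.81 in WT arrays and 5.93, 5.79 and 5.97 in Runx3-/- 1, 2 and 3, all under background.

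Lists of other DC and of phagocytes had higher means in all Runx3-/- arrays. The plasmacytoid DC list, of cells known for Klra17, had a mean of 7.79 to 7.89 in WT arrays and of 8.03, 8.21 and 8.96 in Runx3-/- 1, 2 and 3, with a summed level of 4329 to 4472 and 4917 to 7447. Siglech, a defining gene of these cells, read 7.40 to 7.45 in WT and 7.46, 8.18 and 10.18 in Runx3-/- arrays. Spib, a transcription factor of these cells, read 9.29 to 9.74 in WT and 10.12, 10.10 and 10.28 in Runx3-/- arrays (adjusted p = 0.0704), and the chemokine receptor Ccr9 read 7.02 to 7.63 in WT and 7.68, 8.05 and 9.35 (adjusted p = 0.290). In Runx3-/- 1, with a Klra17 value of 10.16, Siglech and Ccr9 lay just above the highest WT value and Spib further above it. Ly6d also lay above WT in that array, as did Cox6a2, though under background. Bst2, Tcf4 and Lair1 lay within the WT range there. In that list 0 of 8 tested genes passed the limma test, and Spib and Ccr9, 2 in all, passed the looser thresholds. The monocyte list had a mean of 9.02 to 9.19 in WT and 9.87 to 9.90 in Runx3-/- arrays (summed level 6533 to 8502 and 11862 to 12314), with 1 of 7 tested genes called, Cx3cr1. With litter as a block none of the calls in these lists passed. The red pulp macrophage list read 8.44 to 8.91 and 9.59 to 9.86 (summed level 8717 to 11458 and 15017 to 17807), with 5 of 10 called higher, namely Spic, C1qa, C1qb, C1qc and Mertk. The CD8+ DC list read 8.00 to 8.13 in WT and 8.49, 8.27 and 8.76 in Runx3-/- 1, 2 and 3 (summed level 4214 to 4789 and 5415 to 7974), with 2 of 9 called higher, Cadm1 and Irf8. The B cell list overlapped between genotypes, at 7.31 to 7.63 and 7.34 to 7.58 (summed level 2023 to 2510 and 2262 to 2463), with 1 of 6 tested genes called lower, Blk. Over all tested probe sets 0.856% were called higher and 0.7% lower. The looser thresholds were passed by 5 of 7 tested genes of the monocyte list and 7 of 10 of the red pulp macrophage list. In the CD8+ DC list 3 of 9 passed them, and all of these were higher. In the B cell list 2 of 6 passed them, both lower. The shares of all tested probe sets were 2.01% higher and 1.94% lower. The part of such cells in the differences of Klra17, Klra2, Klrk1 and Klrb1b was not tested.

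**Figure D5:**
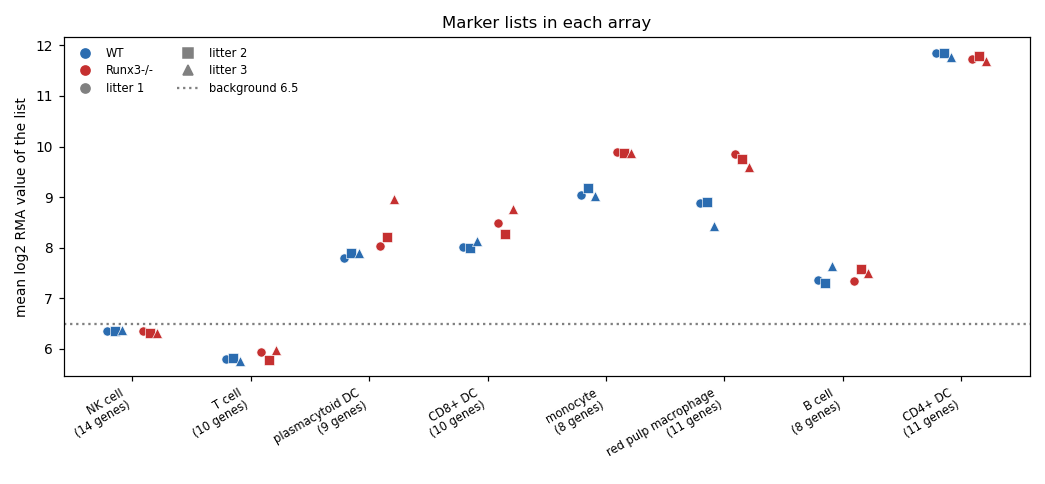
Mean log2 RMA value of each marker list (vertical axis) by array (blue, WT, and red, Runx3-/-), with a symbol for each litter. The dotted line marks 6.5. The NK and T cell lists lie under the background in both genotypes, whereas the monocyte list is at 9.02 to 9.19 in WT and 9.87 to 9.90 in Runx3-/- arrays.

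For the 5 receptors past the study's thresholds, the tested genes with the most similar profile were found by Pearson's r over the 6 arrays among 9921 other genes. With so few arrays, in which the genotype difference carries much of r, this is a description only. For Klra17 they were Surf4, Spon1, Cd300e, Gpr162 and Pam, with r from 0.984 to 0.997, and Cd300e is a receptor of the monocyte list above. For Klra2 they were Sdc4, Rai14, Cp, Parvb and Ube2a, from 0.992 to 0.995. For Klra5 they were Prpf8, Wdr41, Fes, Fam102a and Dock10, from 0.994 to 0.999, and Fam102a was the only 1 of these also called (adjusted p = 0.0415). For Klrk1 they were Plcl1, Gm12250, Lap3, Dnajc13 and Tcl1b1, from 0.989 to 0.994. For Klrb1b they were Nmt1, Glrx3, Crip1, Pam and Akr1a1, from 0.988 to 0.995, so that Pam was near both Klra17 and Klrb1b.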

How the data were processed

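Gene expression was measured on 6 Affymetrix arrays, 1 per mouse. The authors processed the raw files in Partek by RMA with GC correction and deposited log2 values, and the submitters' processing notes name the mm9 build, without versions. The RMA step brings arrays to a common distribution, and values near the floor understate differences. The log2 values were used as deposited. The platform annotation gave 1 symbol for 21789 of 35399 probe sets, several for 1621 and none for 11989, and all 9 receptor genes matched RefSeq by Entrez number. Identical values occurred in 701 probe sets, none of them of these receptors.

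Probe sets at 6.5 or above in at least 1 array (19149) were compared between genotypes by the limma package (version 3.58.1, run under R 4.3.3). The lmFit model held genotype alone, eBayes gave two-sided p-values, with Benjamini-Hochberg adjustment over all of them and a threshold of 0.05. The methods' analysis of variance was an alternative, beside the litter as a block, other normalizations and filters, a variance trend and the omission of each array. The fit was tested on simulated data. For a gene in several probe sets the brightest was used. Where a group lay wholly below background, the fold given sets its values to 6.5 and takes no account of sampling error. The number of arrays limits the precision. Per the labels a number marks a litter, and deviations from the genotype means correlated within litters at 0.158, 0.102 and 0.246. Promoter windows were aligned with biopython 1.88. The genes named were the receptors, Runx3, called members of each list and some of those with the smallest p, neighbours in gene order and the 5 nearest profiles, and Cd69, Clec12a and genes given as levels were named after their values were seen. The receptors and lists were chosen with earlier results of these data known.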

Additional observations from a re-analysis of the deposited data

How the results depend on the processing

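The direction of Runx3 and of the 6 tested receptors was kept in all 14 alternatives. Only other normalizations and the omission of an array could change it, since the remaining settings left each estimate as it was. For Klrd1 the difference was -0.004 without Runx3-/- 1. The receptors past the adjusted threshold numbered 1 as reported, 0 with litter as a replicate block, 0 with the methods' analysis of variance and 0 to 3 without an array, where 3 (Klra5, Klra17 and Klrb1b) were called without Runx3-/- 2. In the block and the analysis of variance 5 and 4 receptors passed the study's thresholds. Over all probe sets the calls numbered 298 as reported, 0 with the replicate block (3430 with an unadjusted p of at most 0.05), 6 with the analysis of variance and 0 to 205 without an array, with 0 without WT 1 and 1 without Runx3-/- 3. Runx3 was at -1.98 with the replicate block (adjusted p = 0.0609), and from -2.03 to -1.96 without an array, with an adjusted p of 0.0537 without WT 1. The causes were not tested. Each receptor had 1 probe set, so averaging probe sets left its value as it was. Values under background have no order, which limits Klrb1c, Klrc1, Klrg1 and the low side of Klra2, Klra5 and Klrk1.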
